A study of Mus musculus with 12 samples.

Results

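The 10 genes described here encode the parts of the mouse major histocompatibility complex (MHC) class I peptide loading pathway. They were taken by symbol: the heavy chains H2-K1, H2-D1 and H2-T23, the light chain B2m, the peptide transporter subunits Tap1 and Tap2, the loading factor Tapbp, and the immunoproteasome subunits Psmb8, Psmb9 and Psmb10. All 10 were among the 19921 symbols of the count tables and among the 5443 genes with enough counts to be tested. Expression was measured in subcutaneous tumours of Colon26, a mouse colon carcinoma line, in wild-type BALB/c mice that had received 200000 tumour cells in the right flank. The 12 libraries formed 4 groups of 3, each library from the tumour of 1 mouse taken on day 10. Control mice (Ct) carried the tumour and received neither agent. The minP1 group received 0.08 µg of minP1, a peptide from the chromatin protein HMGN1 that stimulates immune cells, into the peritoneum on day 9. The anti-PD-L1 group (PDL1) received 200 µg of the antibody 10F.9G2 against the checkpoint ligand PD-L1 by the same route on days 4 and 8. The combination (minP1_PDL1) received both, as its sample titles give it, while its treatment label names only the antibody after a plus sign. Tumours were digested, a Percoll layer reduced tumour and dead cells, and the RNA of the remaining cells was read as tags from the 5′ end of transcripts.

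MHC class I molecules display short peptides from inside the cell to CD8 T cells. The proteasome cuts proteins into peptides, and interferons exchange its 3 catalytic subunits for the immunoproteasome forms. The TAP transporter, a pair of TAP1 and TAP2, moves the peptides into the endoplasmic reticulum, where tapasin (Tapbp) holds the empty heavy chain and B2m next to it until a peptide binds. Interferon gamma acts on most of these genes through IRF1 and NLRC5, and tumour cells that lose the pathway can escape T cells.

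Totals ranged from 133917 to 473273 counts, with the lowest total in the combination. The reads of Bc1, a small noncoding RNA, together with those of Lrrc17, took 1.36% to 2.34% of Ct counts, 1.5% to 4.17% of minP1, 2.35% to 4.42% of PDL1 and 2.49% to 6.32% of minP1_PDL1 counts. At equal depth the genes detected ranged from 10508 to 11599 in control and from 9797 to 10395 in the combination. Markers of carcinoma and epithelium were 7 of 10 in the tables, with none past the filter on low counts. They summed to 7.31 to 24.6 counts per 1000000 (CPM) in Ct, 3.66 to 18.8 in minP1, 12.1 to 22.2 in PDL1 and 0 to 83.5 in minP1_PDL1. Over all 12 libraries they held from 2 counts (Krt8 and Vil1) to 16 (Cdh1). Krt18 held 0, 0, 2 and 7 counts in the same order of groups, and Cdh1 9, 2, 4 and 1. The 5 leukocyte markers summed to 410 to 493 CPM in control and 507 to 794 in the combination, of which Coro1a and Laptm5 had the higher mean in the combination and Ptprc (66.2 ± 12.7 and 27.6 ± 16.7 CPM), Cd52 and Cd53 the lower. In such bulk samples a change in the number of cells of a type and a change in RNA per cell cannot be told apart.

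H2-K1, B2m and Tap1 rose with anti-PD-L1 alone, by 2.30-fold, 2.21-fold and 2.72-fold. In the combination these 3 genes together with Psmb9, H2-D1 and Tapbp rose, and H2-T23 fell. H2-K1, B2m, Tap1, Psmb9, H2-D1 and Tapbp had their highest mean in the combination. With minP1 alone 9 of 10 genes had a log2 fold change above 0, as did 49.6% of all genes, and none passed. Each change below is a log2 fold change ± SE from edgeR's quasi-likelihood test, with p-values adjusted by Benjamini-Hochberg over 5443 genes, and a gene is said to rise or fall where the adjusted p is under 0.05. Levels are CPM of each library's counts in tested genes, scaled by the trimmed mean of M-values (TMM), and a value after ± beside a level is the SD over 3 libraries.

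In minP1 against control 0 of 10 members passed, as did 0% of all tested genes. At an unadjusted p under 0.05 there were 6 members and 383 of all genes, while of all genes DESeq2 called 1 and limma voom 0. The median of the members was 0.73 on the log2 scale, against -0.004 for all genes. In anti-PD-L1 against control 3 members rose, where 1.12% of all genes were called in either direction and 0.551% higher (0.57% lower). The median was 0.74 for the members and -0.03 for all genes. In the combination against control 6 members rose and 1 fell, where 34.8% of all genes were called, 16.5% higher and 18.3% lower. The median was 0.85 for the members and -0.06 for all genes. The 3 comparisons share the control libraries, so their values are not independent of each other. The treated group did not overlap control for 4 members with minP1, 4 with anti-PD-L1 and 5 with both, beside 12.4%, 23.5% and 45.9% of all genes.

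Control replicate 3 was the highest control for every member except H2-T23, for which it was the lowest. Without it 7 members were called in anti-PD-L1 against control, 8 in the combination against control and 1, Tap1, in minP1 against control (1.71 ± 0.33, adjusted p = 0.0245), where 59, 1535 and 5 of 5899 genes were called in the same order. The folds of Tap1, Psmb8 and Psmb9 moved by more than 1.5 times. Without that library Tap1 was 2.17 ± 0.33, adjusted p = 6.32e-04 in anti-PD-L1 and 2.40 ± 0.34, adjusted p = 1.53e-05 in the combination. Psmb9 was 2.55 ± 0.43, adjusted p = 1.56e-04 in the combination. Psmb8 was 1.69 ± 0.32, adjusted p = 0.00456 in anti-PD-L1 and 1.57 ± 0.32, adjusted p = 0.00103 in the combination. The 3 anti-PD-L1 calls were fewer under other choices of libraries: 0 members were called without control replicate 2, without anti-PD-L1 replicate 1 or without anti-PD-L1 replicate 2, 1 without control replicate 1 and 2 without anti-PD-L1 replicate 3. Of all genes 1, 12, 6, 106 and 20 were then called. At equal depth Tap1 did not pass in anti-PD-L1 (adjusted p = 0.0752). With the number of genes detected in each library as a covariate, 0 members were called in anti-PD-L1 against control, 5 in the combination against control and 0 in the combination against minP1, beside 1, 494 and 275 of all 5443 genes. In the combination against control H2-K1, B2m, Tap1 and H2-T23 passed in every setting and with each library left out.

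Against the lone treatments fewer members differed. In the combination against anti-PD-L1, where 6.94% of all genes were called (2.99% higher, 3.95% lower), 1 member fell, H2-T23. In the combination against minP1, where 20.0% were called, H2-K1 and B2m rose (9.19% of all genes were called higher) and H2-T23 and Tap2 fell (10.8% lower). The groups did not overlap for 4 members in the first of these comparisons and for 6 in the second, against 27.3% and 37.5% of all genes. The interaction, which is the effect of minP1 in mice given the antibody less its effect in mice given none, passed for 0 members and 0% of all genes. It was below 0 for all 10 members, where 44.5% of all genes lay above 0, and the members' median was -0.65 against -0.09. At an unadjusted p under 0.05 the interaction held 3 members and 600 of all genes, and DESeq2 called 20 genes and limma voom 0.

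**Figure D1:**
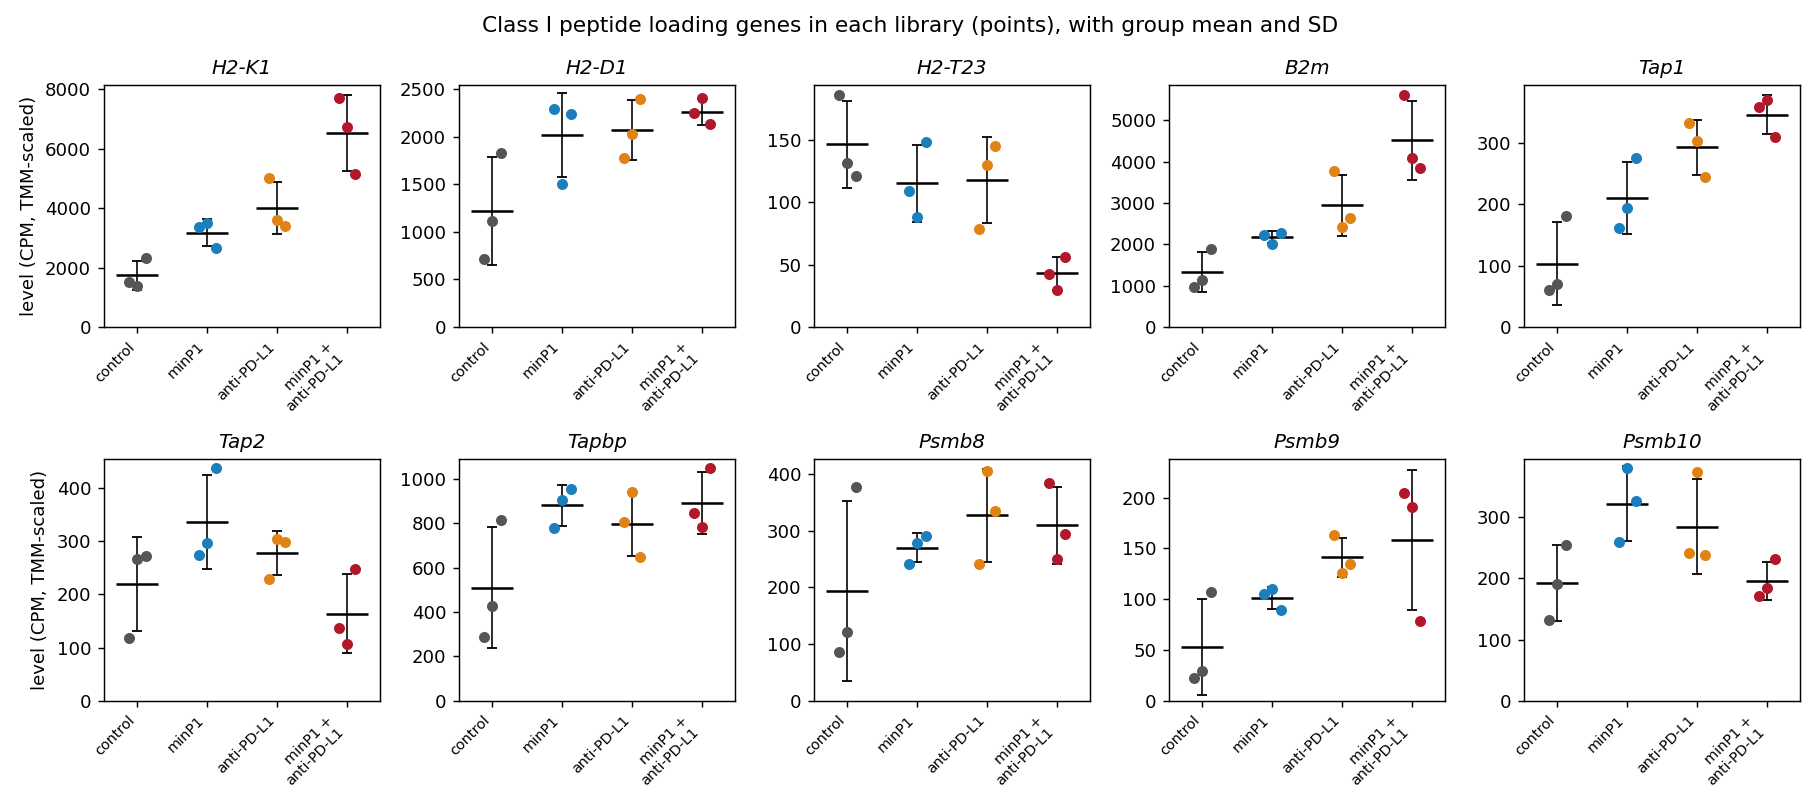
Level of each of the 10 genes in each of the 12 libraries, in CPM from 0 with a scale of its own in each panel, for control, minP1, anti-PD-L1 and both. Points are libraries, long bars are group means and whiskers their SD. For H2-K1 and B2m every combination library lies above every control, minP1 and anti-PD-L1 library, and for H2-T23 every one lies below.

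Averaged over the peptide, anti-PD-L1 was compared in 6 libraries with and 6 without it. H2-K1, B2m, Tap1 and Psmb9 rose and H2-T23 fell, where 28.0% of all genes were called, 12.4% higher and 15.5% lower. Averaged over the antibody, minP1 gave 3 calls among the members, where 7.31% of all genes were called (3.14% higher, 4.17% lower): H2-K1 (0.79 ± 0.18, adjusted p = 0.0121) and B2m (0.66 ± 0.18, adjusted p = 0.029) rose and H2-T23 (-0.90 ± 0.24, adjusted p = 0.0277) fell. With the number of genes detected in each library as a covariate, only H2-K1 of these 3 passed for the peptide (0.67 ± 0.16, adjusted p = 0.0272), and only B2m of the 5 for the antibody (0.97 ± 0.27, adjusted p = 0.0455), beside 185 and 201 of all genes. That number, given above, was 9968 to 10668 in anti-PD-L1, and its part in the result was not tested. With the Bc1 and Lrrc17 level as a covariate the antibody calls of H2-T23 (adjusted p = 0.235) and Psmb9 (adjusted p = 0.19) were lost, and that of H2-T23 also at equal depth (adjusted p = 0.0592) and without minP1 replicate 3 (adjusted p = 0.0587) or combination replicate 2 (adjusted p = 0.0669). The peptide calls were 0 without anti-PD-L1 replicate 3, 1 without control replicate 1, anti-PD-L1 replicate 2 or combination replicate 1, and 2 without control replicate 2, minP1 replicate 2 or combination replicate 2. Of all genes 76, 388, 173, 110, 267, 168 and 173 were then called, in the order of these libraries, against 398 with all libraries. The peptide call of H2-T23 was also lost in limma voom (adjusted p = 0.0567) and at equal depth (adjusted p = 0.0759). Without control replicate 3 the peptide calls were 7 and those for the antibody 8, beside 267 and 1318 of all genes.

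**Figure D2:**
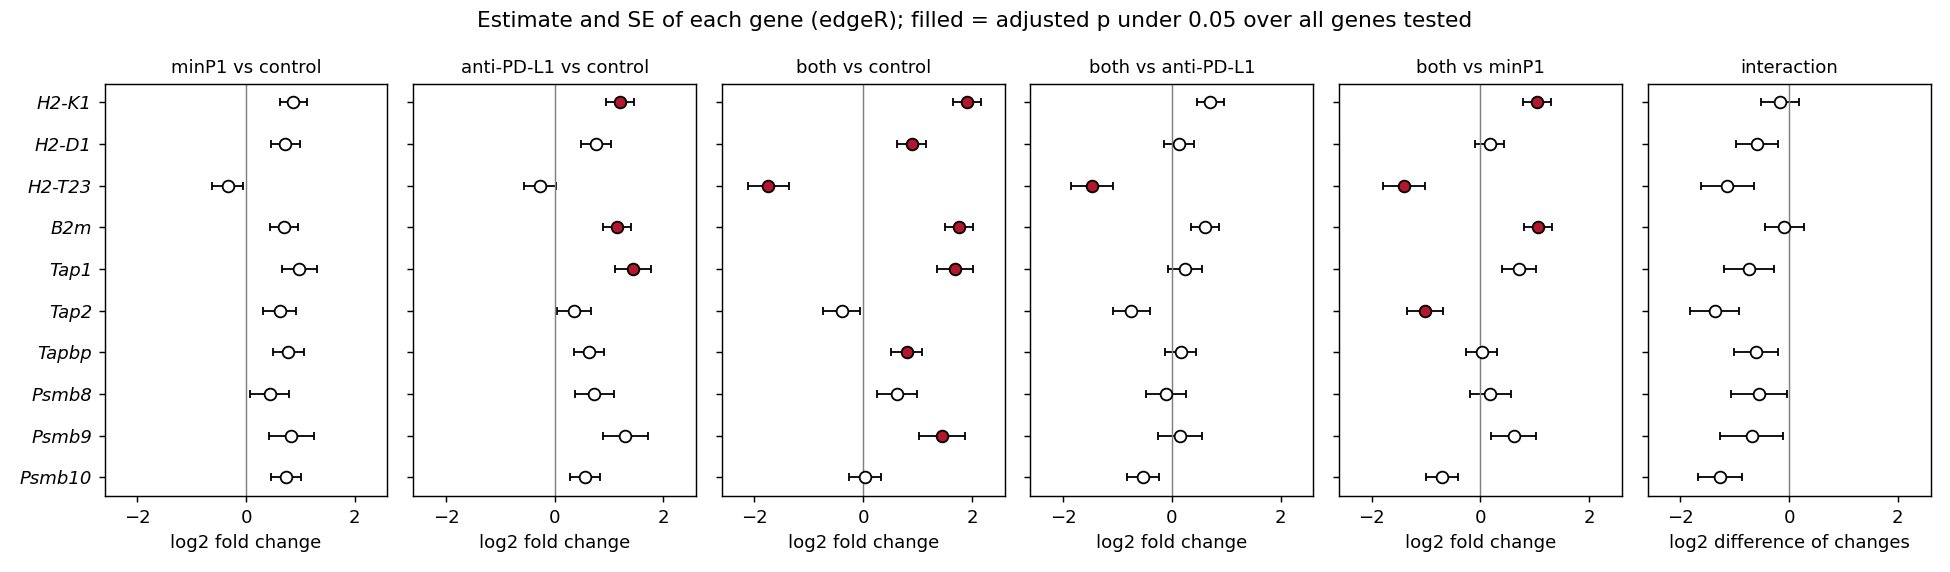
Log2 fold change ± SE of each of the 10 genes in the 5 pairwise comparisons and the interaction, from edgeR's quasi-likelihood test, with filled points where the adjusted p is under 0.05. The combination against control holds 7 filled points, of which only H2-T23 lies below 0, and the interaction holds none.

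H2-K1 and H2-D1 encode the classical heavy chains that present peptides to CD8 T cells. Both lie on chromosome 17 of mm10, H2-K1 at 33996017 to 34000347 on the minus strand and H2-D1 at 35262730 to 35267499 on the plus strand. H2-K1 was measured at 1499.7, 1397 and 2311 CPM in Ct, 3364, 3512 and 2648 in minP1, 5011, 3599.8 and 3389 in PDL1 and 7691, 6738 and 5151 in minP1_PDL1. No library of any treated group overlapped control, and the 3 combination libraries were the 3 highest of all 12. The log2 fold change was 0.87 ± 0.25 (adjusted p = 0.411) with minP1, 1.20 ± 0.25 (adjusted p = 0.0293) with anti-PD-L1 and 1.91 ± 0.25 (adjusted p = 9.89e-06) with both, the last a 3.75-fold rise. The combination exceeded minP1 by 1.04 ± 0.25 (adjusted p = 0.00498). It lay above anti-PD-L1 by 0.71 ± 0.25 (adjusted p = 0.0811), which did not pass, although the groups did not overlap. Without anti-PD-L1 replicate 1, the highest library of its group, that difference was 0.93 ± 0.26, adjusted p = 0.0306. It also passed in DESeq2 (adjusted p = 0.0418), at equal depth (adjusted p = 0.0441) and with the Bc1 and Lrrc17 level as a covariate (adjusted p = 0.0407).

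H2-D1 was measured at 716, 1112 and 1827 CPM in Ct, 2292, 1505 and 2243 in minP1, 1771, 2028 and 2400.4 in PDL1 and 2254, 2405 and 2133 in minP1_PDL1. The lowest combination library lay above the highest control, while the minP1 and anti-PD-L1 groups each overlapped control. It rose in the combination (0.89 ± 0.27, adjusted p = 0.0142, 1.85-fold), and this call was lost without control replicate 1 (adjusted p = 0.0548). The values were 0.72 ± 0.27 (adjusted p = 0.532) in minP1 and 0.76 ± 0.27 (adjusted p = 0.136) in anti-PD-L1, the last of which passed without control replicate 3 (adjusted p = 0.0279) and with the Bc1 and Lrrc17 level as a covariate (adjusted p = 0.0439). The combination differed from minP1 by 0.17 ± 0.27 and from anti-PD-L1 by 0.13 ± 0.27, neither past the threshold. The libraries of the 2 classical heavy chains overlapped in control, at 1736 ± 501 and 1218 ± 564 CPM, and not in the combination, at 6527 ± 1283 and 2264 ± 136 CPM.

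The promoters of these genes are shown for their motifs, which are known from work on interferon and NLRC5. The classical heavy chains and B2m hold the same kinds of motif match, though not all in the same order. H2-T23 holds only some of these kinds. The sequences are those of RefSeq on GRCm38.p6, a C57BL/6 genome, while BALB/c mice carry other class I alleles. Of the 10 genes 9 matched a promoter sequence there, all but Tap2. The 250 bases before each start were searched on both strands for GAAA followed after any 2 bases by GAAA (named the long IRF form here), for GAANNGAAA (both are forms bound by interferon regulatory factors, IRFs), the NF-kB consensus, TGACG (bound by CREB) and CCAAT (bound by NF-Y). Of all 32851 promoter windows 2.98%, 6.31%, 7.25%, 17.8% and 33.8% held them in that order. No match of one motif overlaps a match of another in the stretches printed, except that the palindromic NF-kB site of H2-K1 and H2-D1 matches at a pair of neighbouring positions. Capitals mark the motif matches, on either strand, in the first stretch of 30 bases of each gene, which lies at chr17:34000429-34000458 (minus strand) for H2-K1, chr17:35262923-35262952 (plus) for H2-D1, chr2:122147545-122147574 (plus) for B2m and chr17:36032806-36032835 (minus) for H2-T23:
H2-K1: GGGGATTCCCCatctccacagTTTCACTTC
H2-D1: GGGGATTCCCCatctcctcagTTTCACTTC
B2m: catGAAACTGAAAatgGGAAAGTCCCtttg
H2-T23: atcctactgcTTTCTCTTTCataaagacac
H2-K1 and H2-D1 share 29 of the 30 bases, each with an NF-kB match followed by GAANNGAAA. B2m holds both kinds of match in the other order, with the long IRF form. H2-T23 holds the long IRF form and no NF-kB match in its 250 bases. Nearer to the start lies a second stretch, with TGACG and CCAAT in capitals, at chr17:34000359-34000388 (minus strand) for H2-K1, chr17:35262993-35263022 (plus) for H2-D1, chr2:122147609-122147638 (plus) for B2m and chr17:36032749-36032778 (minus) for H2-T23:
H2-K1: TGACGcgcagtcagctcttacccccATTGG
H2-D1: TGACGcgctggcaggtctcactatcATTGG
B2m: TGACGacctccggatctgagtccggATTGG
H2-T23: tgttggacgcctagttttctaaaagCCAAT
In H2-K1, H2-D1 and B2m the TGACG and the CCAAT match (read as ATTGG on the other strand) lie at the same distance, at the ends of the 30 bases, although H2-K1 shares only 23 of the bases with H2-D1 and 13 with B2m. H2-T23 has a CCAAT match and no TGACG in its window. The starts used are those of RefSeq. In GENCODE M21 the H2-T23 model begins farther upstream, at 36032855, and that of H2-D1 at 35262730. The stretches printed for these genes therefore lie inside their GENCODE models, and a window before those starts was not searched. These matches describe the reference sequence, and binding was not measured here.

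H2-T23 encodes Qa-1, a nonclassical heavy chain that presents peptides from the leader sequences of other class I heavy chains to the CD94/NKG2A receptor of NK and CD8 T cells. It lies at 36029773 to 36032855 on the minus strand of chromosome 17 and overlaps the antisense gene A930015D03Rik. The strand used in counting is not given in the sources used here, so reads of the 2 genes cannot be told apart. H2-T23 was measured at 186, 132 and 121 CPM in Ct, 109, 87.9 and 148 in minP1, 78.6, 129.8 and 145 in PDL1 and 42.7, 29.8 and 56.4 in minP1_PDL1. It was the member that fell in the combination: all 3 combination libraries lay below every library of the other groups, and the other groups overlapped. The combination was 3.35-fold lower than control (-1.75 ± 0.37, adjusted p = 0.001), 2.77-fold lower than anti-PD-L1 (-1.47 ± 0.39, adjusted p = 0.0222) and 2.66-fold lower than minP1 (-1.41 ± 0.38, adjusted p = 0.0121). Neither treatment alone passed, with -0.34 ± 0.29 (adjusted p = 0.867) in minP1 and -0.27 ± 0.29 (adjusted p = 0.668) in anti-PD-L1.

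The combination libraries of H2-T23 held 5, 5 and 10 counts, against 65, 36 and 54 in control, so the low level rests on few reads. The fall against anti-PD-L1 was lost in limma voom, at equal depth and without any 1 of 4 libraries. Of these the highest adjusted p was without combination replicate 2 (-1.21 ± 0.44, adjusted p = 0.127), and the others were combination replicate 1 (adjusted p = 0.102), anti-PD-L1 replicate 2 (adjusted p = 0.0797) and anti-PD-L1 replicate 3 (adjusted p = 0.124). The fall against minP1 was lost with the Bc1 and Lrrc17 level (-1.16 ± 0.44, adjusted p = 0.085) or the number of detected genes (adjusted p = 0.106) as a covariate and without minP1 replicate 3, combination replicate 1 or combination replicate 2 (adjusted p = 0.0829, 0.0509 and 0.0926).

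Reads of related heavy chains can be assigned to one another, so the counts of all 22 class I heavy chain symbols were also summed. The sum was 3496 ± 1162 CPM in Ct, 5858 ± 397 in minP1, 6755 ± 629 in PDL1 and 9505 ± 1393 in minP1_PDL1. It rose in the combination against control by 1.44 ± 0.24 (adjusted p = 9.98e-05) and against minP1 by 0.70 ± 0.24 (adjusted p = 0.0396) in edgeR's test. The call against minP1 was lost without any 1 of 6 libraries, minP1 replicate 1 (adjusted p = 0.0815), minP1 replicate 2 (0.0533), minP1 replicate 3 (0.105), anti-PD-L1 replicate 2 (0.0531), combination replicate 1 (0.107) or combination replicate 2 (0.0745). It was also lost with low genes left in (adjusted p = 0.152), with these groups alone (adjusted p = 0.0508) and with detected genes in the model as covariate (adjusted p = 0.217). In anti-PD-L1 the sum was 0.95 ± 0.24 (adjusted p = 0.05005), just outside the threshold, and it passed without control replicate 3 (adjusted p = 0.0075), minP1 replicate 2 (0.0195), minP1 replicate 3 (0.0469), combination replicate 1 (0.0456) or combination replicate 3 (0.0362). It was 0.75 ± 0.24 (adjusted p = 0.425) in minP1 and 0.49 ± 0.24 (adjusted p = 0.208) in the combination against anti-PD-L1. The make-up of the sum is given as a description. H2-K1 held 50.3% ± 5.85 of heavy chain counts in control and 68.3% ± 3.63 in the combination, H2-D1 33.9% ± 5.86 and 24.1% ± 2.88, and H2-T23 4.64% ± 2.29 and 0.469% ± 0.210 (SD, n = 3). With minP1 and anti-PD-L1 alone H2-K1 held 54.2% ± 7.10 and 58.8% ± 7.83. Since a 5′ tag counts each transcript end once, these shares need no correction for length, but the reads were assigned on a genome with other class I alleles than the mice, and how that sets the split was not tested.

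**Figure D3:**
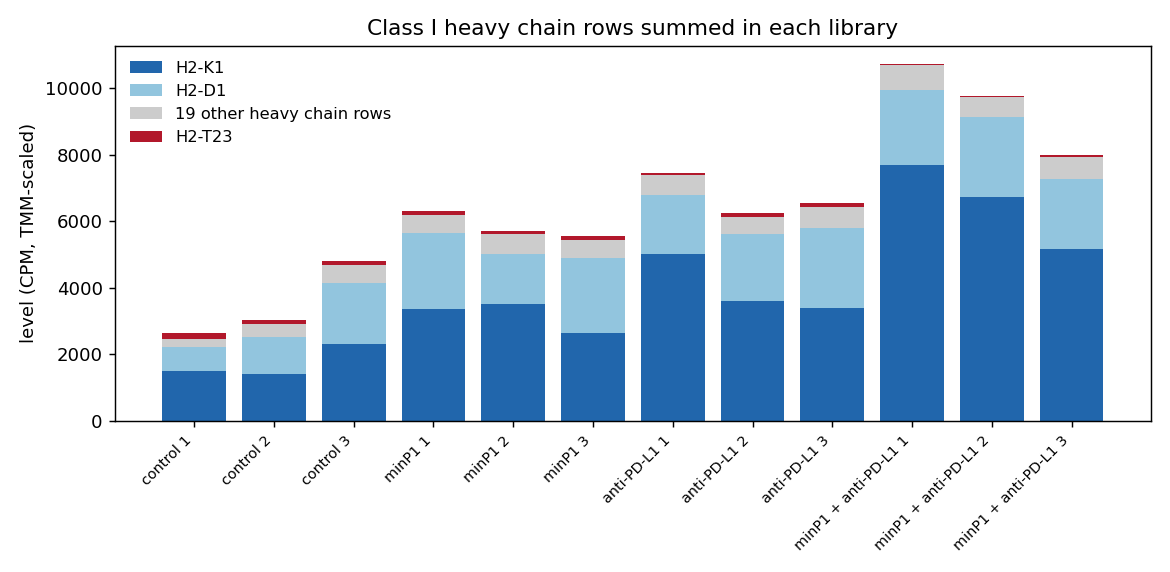
Make-up of the class I heavy chain counts in each of the 12 libraries, as stacked bars in CPM from 0, split into H2-K1, H2-D1, H2-T23 and the 19 other heavy chain symbols. The mean height is 3496 CPM in control and 9505 in the combination, and the H2-K1 part goes from 50.3% to 68.3% of the bar while the H2-T23 part goes from 4.64% to 0.469%.

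B2m, beta-2-microglobulin, is the light chain shared by all class I molecules. Its gene lies on chromosome 2 (122147686 to 122153083, plus strand) inside Patl2, which runs on the other strand. B2m was measured at 962, 1141 and 1888 CPM in Ct, 2231, 2007 and 2282 in minP1, 3784, 2409.8 and 2648 in PDL1 and 5617, 4094 and 3842 in minP1_PDL1. Every treated library lay above every control, and every combination library lay above every other library. The log2 fold change was 0.71 ± 0.26 (adjusted p = 0.516) with minP1, 1.14 ± 0.26 (adjusted p = 0.0352) with anti-PD-L1 and 1.76 ± 0.26 (adjusted p = 3.05e-05) with both, a 3.39-fold rise in the last. The combination lay above minP1 by 1.05 ± 0.26 (adjusted p = 0.00604) and above anti-PD-L1 by 0.62 ± 0.26 (adjusted p = 0.142), of which only the first passed. Without anti-PD-L1 replicate 1, again the highest of its group, the second was 0.86 ± 0.27, adjusted p = 0.04962. The highest adjusted p of this second difference was 0.413 with 1 library left out and 0.426 over the other settings. The interaction of B2m was -0.09 ± 0.36 (adjusted p = 0.953), so a departure from the sum of the single changes on the log scale was not detectable at this depth.

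Within a library, the ratio of a gene to another does not depend on depth or scaling. The log2 ratio of H2-K1 to B2m was 0.41 ± 0.20 in Ct, 0.54 ± 0.30 in minP1, 0.45 ± 0.12 in PDL1 and 0.53 ± 0.16 in minP1_PDL1. The antibody moved it by 0.02 (exact p = 0.9, adjusted p = 0.9) and the peptide by 0.11 (exact p = 0.37, adjusted p = 0.432), in exact two-sided permutation tests over the 12 libraries in 400 regroupings, which can give no p under 0.005, adjusted over 14 tests. H2-T23 to B2m was -3.14 ± 0.80 in Ct, -4.25 ± 0.29 in minP1, -4.64 ± 0.78 in PDL1 and -6.63 ± 0.53 in minP1_PDL1. Averaged over the other agent, this ratio was lower with each: the antibody difference was -1.94 (exact p = 0.005, adjusted p = 0.035) and the peptide difference -1.55 (exact p = 0.01, adjusted p = 0.0467). Both differences take in the combination libraries, with 5, 5 and 10 counts of H2-T23. With minP1 alone the log2 fold change was -0.34 ± 0.29 for H2-T23 and 0.71 ± 0.26 for B2m, and with anti-PD-L1 alone -0.27 ± 0.29 and 1.14 ± 0.26. With 1 library left out, the antibody call was lost without control replicate 1, minP1 replicate 1 or minP1 replicate 2 (highest adjusted p = 0.07), and the peptide call without these or combination replicate 1 or 2 (highest adjusted p = 0.0933), in the same exact tests with fewer regroupings. H2-D1 to B2m was -0.17 ± 0.22 in Ct, -0.13 ± 0.25 in minP1, -0.49 ± 0.52 in PDL1 and -0.98 ± 0.30 in minP1_PDL1, and its antibody difference of -0.58 (exact p = 0.025, adjusted p = 0.084) did not pass after adjustment. The peptide difference was -0.22 (exact p = 0.305, adjusted p = 0.388).

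Tap1 and Tap2, the subunits of the peptide transporter, differed in pattern although their proteins work as a pair. Both lie in a cluster of 34.3 kb on chromosome 17 (34181987 to 34216321) that also holds Psmb8 and Psmb9. Tap1 was measured at 60.1, 69.5 and 181 CPM in Ct, 162, 194 and 277 in minP1, 332, 304 and 245 in PDL1 and 359, 370.0 and 310.3 in minP1_PDL1. Every anti-PD-L1 and combination library lay above every control, while minP1 replicate 1 lay below control replicate 3. Its log2 fold change was 0.98 ± 0.33 (adjusted p = 0.428) with minP1, 1.44 ± 0.33 (adjusted p = 0.0352) with anti-PD-L1 and 1.69 ± 0.33 (adjusted p = 4.85e-04) with both, a 3.22-fold rise in the last. Tap2 was measured at 117, 267 and 273 CPM in Ct, 275, 297 and 438 in minP1, 229.7, 304 and 299.6 in PDL1 and 137, 107 and 248 in minP1_PDL1. The minP1 libraries lay above every control and above every combination library, and the combination overlapped control.

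Tap2 did not differ from control by the test in any treated group, with 0.62 ± 0.31 (adjusted p = 0.713) with minP1, 0.35 ± 0.31 (adjusted p = 0.586) with anti-PD-L1 and -0.40 ± 0.34 (adjusted p = 0.378) with both. It was 2.02-fold lower in the combination than in minP1 (-1.02 ± 0.34, adjusted p = 0.034). This fall was lost without minP1 replicate 3 (adjusted p = 0.189), combination replicate 1 (adjusted p = 0.141) or combination replicate 2 (adjusted p = 0.208), and with the Bc1 and Lrrc17 level (-0.56 ± 0.32, adjusted p = 0.262) or the number of detected genes (-0.33 ± 0.35, adjusted p = 0.622) as a covariate. The log2 ratio of Tap1 to Tap2 was -1.15 ± 0.69 in Ct, -0.67 ± 0.08 in minP1, 0.08 ± 0.42 in PDL1 and 1.15 ± 0.74 in minP1_PDL1. In control and minP1 Tap2 exceeded Tap1 in all 6 libraries, and in the combination Tap1 exceeded Tap2 in all 3. The antibody raised the ratio by 1.53 (exact p = 0.005, adjusted p = 0.035), and the peptide difference was 0.77 (exact p = 0.055, adjusted p = 0.11). The antibody call was lost without control replicate 1, minP1 replicate 1 or minP1 replicate 2 (highest adjusted p = 0.07 in the exact test), and without control replicate 3 the peptide difference passed in the exact test at 0.91 (adjusted p = 0.028). Tap2 overlaps Gm20496 and Gm15821 on the other strand, which limits its count as for H2-T23.

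Tap1 and Psmb9 start head to head, with 225 bases between their RefSeq starts (34187330 for Psmb9 on the minus strand, 34187556 for Tap1 on the plus strand). They are shown as the pair of members that share a promoter region. The stretch of Tap1 with its TGACG match in capitals, at chr17:34187458-34187487 on the plus strand of GRCm38.p6, lies between the RefSeq starts:
Tap1: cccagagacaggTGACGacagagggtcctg
In GENCODE M21 Psmb9 begins farther upstream, at 34187764, and Tap1 at 34187553, so the 2 gene models overlap by 212 bases on opposite strands and the printed stretch lies inside the Psmb9 model. The window of Tap1 held no match to the long IRF form, GAANNGAAA or the NF-kB consensus. Psmb8 and Psmb10 had no match to any of the 5 motifs in their windows, and Tapbp had only CCAAT. By GENCODE M21 the windows of Psmb8 and Tapbp lie inside the gene models, and that of Psmb10 lies partly inside.

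**Figure D4:**
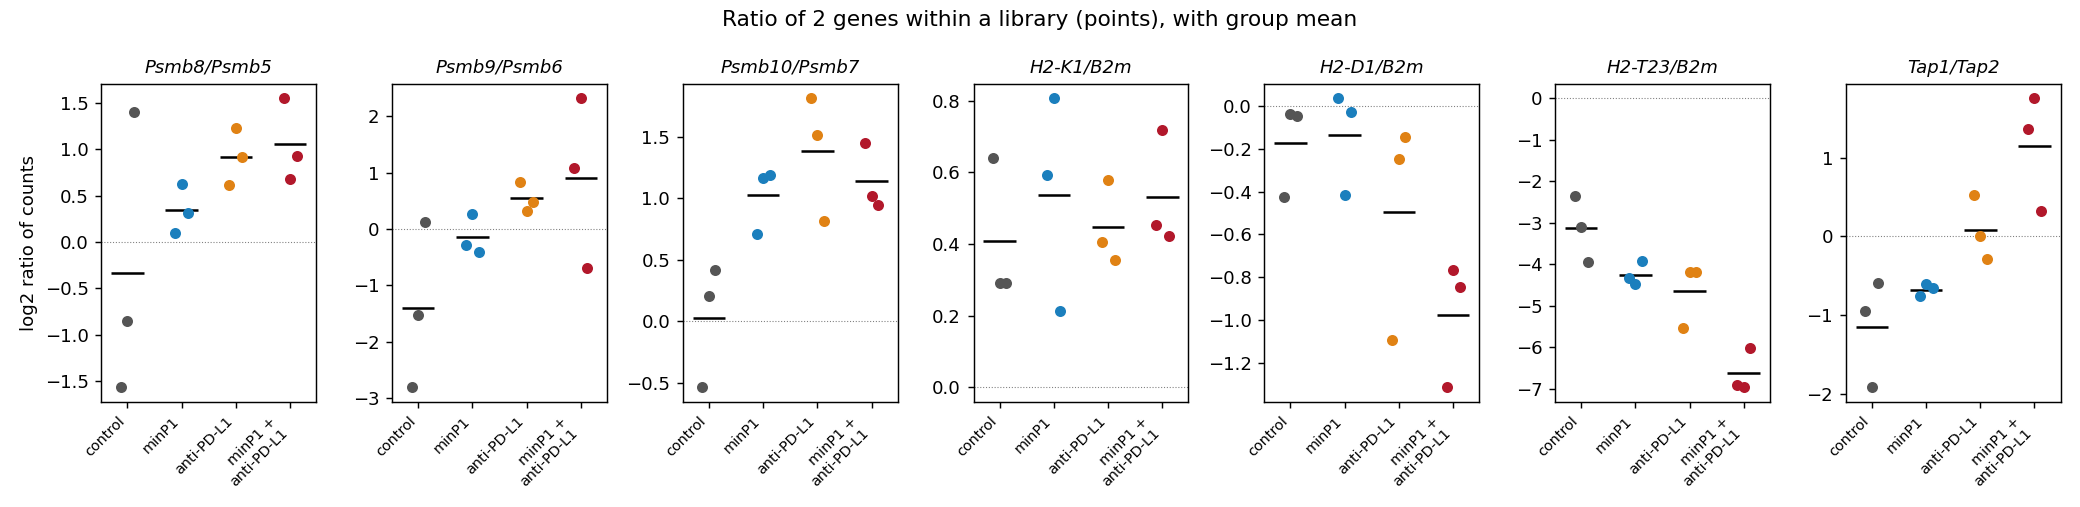
Log2 ratio within each library of 7 pairs of genes, 1 panel a pair, by group, with points for libraries and bars for group means. Tap1 to Tap2 goes from below 0 in all 3 control libraries to above 0 in all 3 combination libraries, H2-T23 to B2m is lowest in the combination, and the group means of H2-K1 to B2m lie between 0.41 and 0.54.

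Tapbp encodes tapasin, which bridges the transporter and the empty class I molecule. Its gene (chromosome 17, 33915899 to 33929292, plus strand) overlaps Zbtb22 on the same strand and the antisense gene Gm19412. Tapbp was measured at 286, 428 and 815 CPM in Ct, 779, 904 and 955 in minP1, 804, 938 and 647 in PDL1 and 845, 782 and 1049 in minP1_PDL1. Control replicate 3 lay inside the range of each treated group, and the other controls lay below all treated libraries. It rose in the combination (0.80 ± 0.29, adjusted p = 0.033, 1.74-fold) and not by the test in minP1 (0.78 ± 0.28, adjusted p = 0.511) or anti-PD-L1 (0.63 ± 0.28, adjusted p = 0.238). The rise was lost without control replicate 1 (adjusted p = 0.118), control replicate 2 (adjusted p = 0.0998) or combination replicate 3 (adjusted p = 0.108), with total-count scaling (adjusted p = 0.0554), with low genes left in (adjusted p = 0.0514), with these groups alone (adjusted p = 0.053) and with detected genes in the model as covariate (1.10 ± 0.40, adjusted p = 0.0837). The combination and minP1 had nearly the same level, a difference of 0.02 ± 0.28.

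The 3 catalytic immunoproteasome subunits did not move alike. Psmb9 (LMP2, which takes the place of Psmb6) was measured at 22.9, 29.3 and 107 CPM in Ct, 105, 109.9 and 88.9 in minP1, 163, 126 and 134 in PDL1 and 205, 191 and 79.0 in minP1_PDL1. Control replicate 3 stood apart from the other controls, all anti-PD-L1 libraries lay above it, and combination replicate 3 lay below it. Psmb9 rose in the combination (1.45 ± 0.43, adjusted p = 0.0114, 2.73-fold). It was 0.83 ± 0.42 (adjusted p = 0.728) in minP1 and 1.30 ± 0.41 (adjusted p = 0.103) in anti-PD-L1, and without control replicate 3 the anti-PD-L1 value was 2.42 ± 0.42, adjusted p = 0.00373. With low genes left in it passed as well (1.32 ± 0.34, adjusted p = 0.0188). The rise in the combination was lost without combination replicate 2 (adjusted p = 0.0549) and with the Bc1 and Lrrc17 level (1.23 ± 0.56, adjusted p = 0.143) or the number of detected genes (0.90 ± 0.63, adjusted p = 0.39) as a covariate. Its count is limited by the overlap with Tap1 given above, as is that of Tap1.

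Psmb8 (LMP7, which takes the place of Psmb5) was measured at 85.9, 121 and 376 CPM in Ct, 241, 278 and 289.8 in minP1, 242, 404 and 334 in PDL1 and 384, 251 and 293 in minP1_PDL1. Control replicate 3 lay within the range of the treated libraries, and the other controls lay below all of them. No comparison passed, with 0.44 ± 0.36 (adjusted p = 0.857) with minP1, 0.73 ± 0.36 (adjusted p = 0.285) with anti-PD-L1 and 0.62 ± 0.37 (adjusted p = 0.199) with both. Without control replicate 3 the last 2 were 1.69 ± 0.32, adjusted p = 0.00456 and 1.57 ± 0.32, adjusted p = 0.00103. Psmb10 (MECL-1, which takes the place of Psmb7; chromosome 8, 105935735 to 105938444, minus strand) was measured at 132, 190.1 and 255 CPM in Ct, 259.6, 381 and 326 in minP1, 242, 374 and 238 in PDL1 and 171, 185 and 231 in minP1_PDL1. The minP1 libraries lay above every control, and the combination lay within the range of control and below every minP1 and anti-PD-L1 library. Psmb10 passed no comparison: it was 0.73 ± 0.27 (adjusted p = 0.516) with minP1, 0.56 ± 0.27 (adjusted p = 0.278) with anti-PD-L1 and 0.03 ± 0.29 (adjusted p = 0.952) with both, a value that was below 0 with total-count scaling, and -0.71 ± 0.29 (adjusted p = 0.0811) in the combination against minP1, which passed with these groups alone (adjusted p = 0.04979). Tap2 and Psmb10 had the lowest interaction values of the members, -1.37 ± 0.46 (adjusted p = 0.255) and -1.27 ± 0.40 (adjusted p = 0.237). Psmb8 overlaps the antisense gene Gm20496 by 2139 bases and Psmb10 the antisense gene Gm16156 by 2710 bases. This limits their counts as for H2-T23.

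The constitutive subunits that the immunoproteasome forms replace gave no rise. Psmb5 was at 206 ± 59.4 CPM in Ct, 213 ± 29.4 in minP1, 168 ± 9.55 in PDL1 and 145 ± 14.9 in minP1_PDL1, with -0.48 ± 0.28 (adjusted p = 0.179) in the combination against control. Psmb6 was at 118 ± 44.0 CPM in Ct, 113 ± 18.9 in minP1, 95.7 ± 4.76 in PDL1 and 86.5 ± 47.4 in minP1_PDL1, with -0.46 ± 0.36 (adjusted p = 0.346). Psmb7 was at 182 ± 15.3 CPM in Ct, 156 ± 13.5 in minP1, 110.2 ± 37.9 in PDL1 and 89.3 ± 29.4 in minP1_PDL1 and fell in the combination (-0.99 ± 0.31, adjusted p = 0.0149). All 3 had their highest mean in control or minP1 and their lowest in the combination. The log2 ratio of Psmb9 to Psmb6 was -1.40 ± 1.47 in Ct, -0.14 ± 0.35 in minP1, 0.54 ± 0.26 in PDL1 and 0.91 ± 1.52 in minP1_PDL1, that of Psmb8 to Psmb5 -0.34 ± 1.55 in Ct, 0.34 ± 0.27 in minP1, 0.92 ± 0.31 in PDL1 and 1.06 ± 0.45 in minP1_PDL1 and that of Psmb10 to Psmb7 0.03 ± 0.50 in Ct, 1.02 ± 0.27 in minP1, 1.38 ± 0.51 in PDL1 and 1.14 ± 0.27 in minP1_PDL1. All 3 ratios were higher with the antibody, by 1.5 (exact p = 0.05, adjusted p = 0.11), 0.99 (exact p = 0.07, adjusted p = 0.122) and 0.73 (exact p = 0.03, adjusted p = 0.084) in the same order. None of them passed after adjustment over the 14 exact tests. Without control replicate 3 the first was 1.88 (adjusted p = 0.0467) and the second 1.42 (adjusted p = 0.0175) in the exact tests, and without combination replicate 3 the first was 1.90 (adjusted p = 0.0233). The peptide differences were 0.81 (exact p = 0.21, adjusted p = 0.327), 0.41 (exact p = 0.405, adjusted p = 0.436) and 0.38 (exact p = 0.245, adjusted p = 0.343).

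Other genes of the pathway were counted by list in the combination against control, where 16.5% of all genes were called higher and 18.3% lower. Counts of a few genes near these shares are not a result about a list, and the lists serve here to place the genes that are named. Of 11 chaperones and trimming factors tested, 3 rose and 3 fell. Calr, calreticulin, which holds the heavy chain in the loading complex, was at 575 ± 81.3 CPM in Ct, 862 ± 319.9 in minP1, 1212 ± 216 in PDL1 and 1796 ± 238 in minP1_PDL1 and rose by 1.64 ± 0.25 (adjusted p = 4.74e-05), and also in anti-PD-L1 by 1.07 ± 0.25 (adjusted p = 0.0357). Canx, calnexin, which helps fold the new heavy chain, rose by 0.63 ± 0.24 (adjusted p = 0.0472). Pdia3, ERp57, the oxidoreductase bound to tapasin, was at 860.5 ± 125 CPM in Ct, 813 ± 253 in minP1, 639 ± 94.2 in PDL1 and 287 ± 106 in minP1_PDL1 and fell (-1.56 ± 0.28, adjusted p = 1.75e-04). It was also lower in the combination than in anti-PD-L1 (-1.14 ± 0.28, adjusted p = 0.015) and minP1 (-1.48 ± 0.28, adjusted p = 7.20e-04). So 2 partners of tapasin in the loading complex went in opposite directions. Of the translocon subunits, Sec61g rose (0.93 ± 0.33, adjusted p = 0.0332) and Sec61a1 fell (adjusted p = 0.00522), with 2 counts over the combination against 51 in control, a ratio of 0.0908 with a 95% exact counting interval of 0.0107 to 0.345. Lnpep, an aminopeptidase of cross-presentation, also fell (adjusted p = 0.00155), with 2 counts over the combination against 63 in control, a ratio of 0.0735 with a 95% exact counting interval of 0.00871 to 0.277. Erap1, which trims peptides in the endoplasmic reticulum, was at 96.4 ± 40.5 CPM in Ct, 135 ± 23.2 in minP1, 162 ± 24.4 in PDL1 and 135 ± 14.9 in minP1_PDL1 and passed no pairwise comparison (0.46 ± 0.31, adjusted p = 0.263 in the combination against control).

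Of 7 proteasome genes tested, Psme2 and Pomp rose in the combination and Psmb7, described above, fell, beside the same 16.5% and 18.3% of all genes. Psme2, a subunit of the PA28 activator, was at 573 ± 98.9 CPM in Ct, 813 ± 156 in minP1, 1035 ± 58.6 in PDL1 and 1197 ± 173 in minP1_PDL1 and rose by 1.06 ± 0.23 (adjusted p = 0.00102). Its partner Psme1 was at 119.8 ± 68.2 CPM in Ct, 104 ± 15.7 in minP1, 81.1 ± 23.7 in PDL1 and 81.7 ± 27.5 in minP1_PDL1 and had -0.62 ± 0.39 (adjusted p = 0.23). Pomp, the assembly factor of the proteasome, rose by 0.98 ± 0.26 (adjusted p = 0.00594) against control and 0.95 ± 0.26 (adjusted p = 0.013) against minP1. Of 6 other class I heavy chains tested, H2-T22, a nonclassical chain seen by gamma delta T cells, rose in anti-PD-L1 (1.37 ± 0.32, adjusted p = 0.0357) and in the combination (1.71 ± 0.33, adjusted p = 4.20e-04). H2-M3, which presents formylated peptides, fell in the combination (adjusted p = 0.0173), with 3 counts over the combination against 46 in control, a ratio of 0.151 with a 95% exact counting interval of 0.0300 to 0.470. These intervals cover counting error only.

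Of 9 regulators tested, 3 rose in the combination and none fell, beside 16.5% of all genes called higher and 18.3% lower. Irf1, the interferon-induced activator of class I genes, was at 143 ± 95.8 CPM in Ct, 294 ± 36.9 in minP1, 354 ± 44.3 in PDL1 and 353 ± 98.3 in minP1_PDL1. It rose in anti-PD-L1 (1.28 ± 0.32, adjusted p = 0.04998, just inside the threshold) and in the combination (1.28 ± 0.33, adjusted p = 0.00477), and its value in minP1 was 1.0 ± 0.32 (adjusted p = 0.428). Irf9, a part of the type I interferon factor, rose by 1.39 ± 0.38 (adjusted p = 0.00735). Stat3 was at 92.7 ± 27.6 CPM in Ct, 128 ± 23.1 in minP1, 148 ± 12.8 in PDL1 and 326 ± 21.6 in minP1_PDL1, and the combination exceeded control by 1.80 ± 0.27 (adjusted p = 2.94e-05), anti-PD-L1 by 1.14 ± 0.27 (adjusted p = 0.0118) and minP1 by 1.36 ± 0.27 (adjusted p = 0.00104). Among the pairwise comparisons Irf2 passed only between the combination and minP1 (1.78 ± 0.46, adjusted p = 0.00814). Nlrc5, the class I transactivator, held 36 counts over the 12 libraries and Ifng 2 counts, too few to be tested, so a difference in either was not detectable at this depth.

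Of 7 interferon receptor and feedback genes tested, Ifngr1, the ligand-binding chain of the interferon gamma receptor, rose in the combination (1.68 ± 0.32, adjusted p = 4.06e-04), and Jak1 (-1.30 ± 0.47, adjusted p = 0.0339) and the feedback inhibitor Socs3 (-2.36 ± 0.75, adjusted p = 0.0174) fell. Of 15 interferon-induced genes outside the loading pathway, 4 rose and 1 fell, again beside 16.5% and 18.3% of all genes. Rsad2 (viperin) was at 48.7 ± 23.5 CPM in Ct, 50.5 ± 10.9 in minP1, 41.5 ± 15.1 in PDL1 and 322 ± 136 in minP1_PDL1 and rose by 2.64 ± 0.36 (adjusted p = 1.17e-05) over control and 2.95 ± 0.39 (adjusted p = 3.65e-04) over anti-PD-L1. Bst2 (tetherin) rose by 1.30 ± 0.23 (adjusted p = 1.49e-04) over control and 0.98 ± 0.23 (adjusted p = 0.0107) over anti-PD-L1. Gbp4 (1.42 ± 0.44, adjusted p = 0.0142) and Ifit1 (1.48 ± 0.57, adjusted p = 0.0455) also rose over control, and Ifitm3 fell (-2.48 ± 0.56, adjusted p = 0.00169). In minP1 against control no gene of these 6 lists passed, as none of all genes did. The median of the interferon-induced list was 0.49 with minP1, 0.49 with anti-PD-L1 and 0.66 with both, beside the medians of all genes given above.

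**Figure D5:**
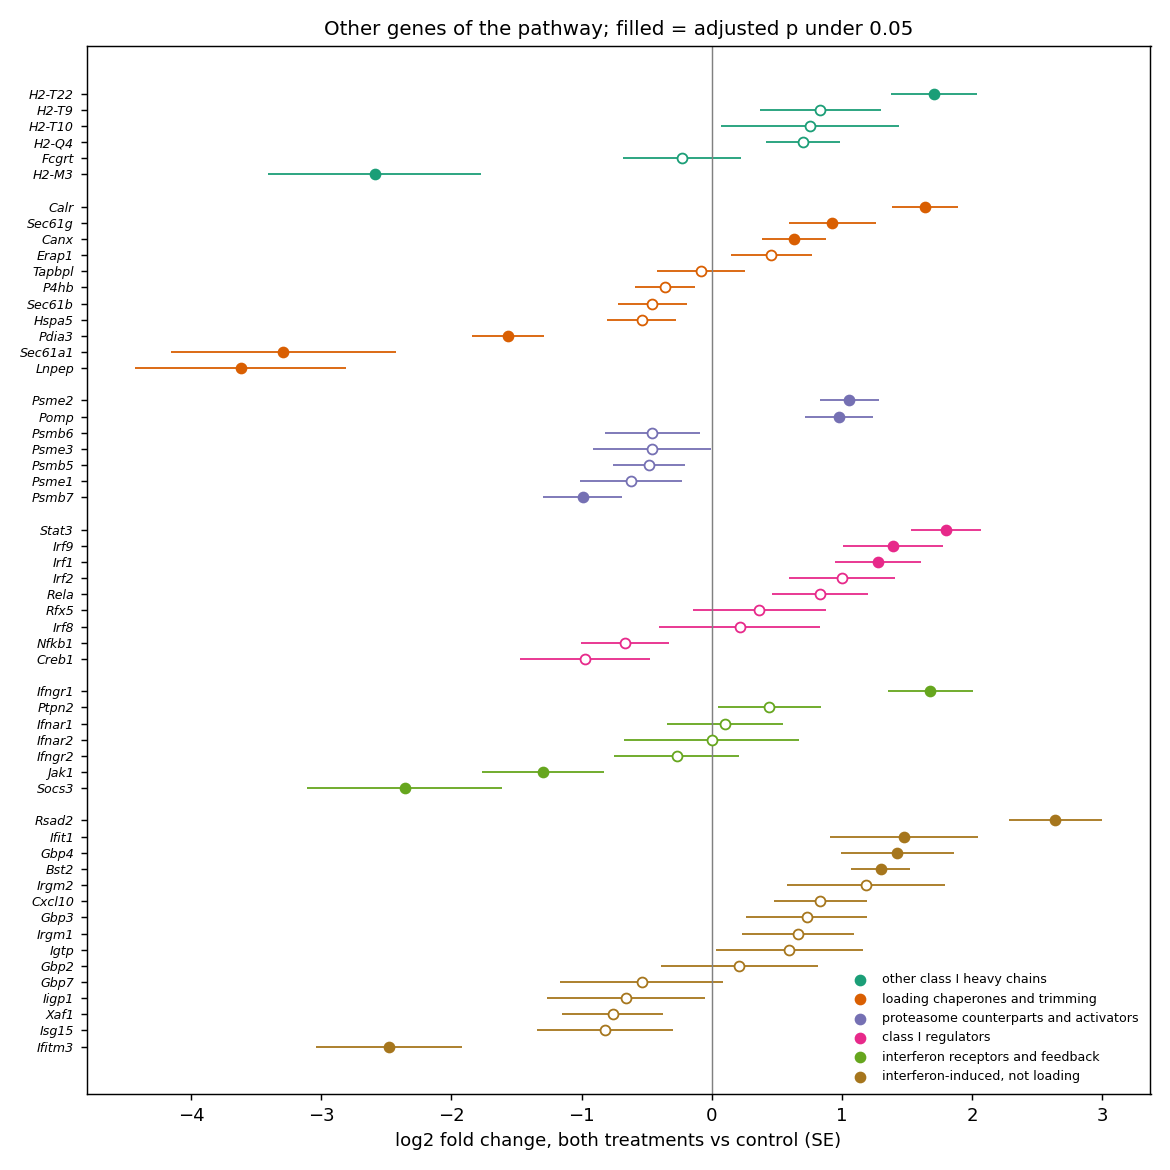
Log2 fold change of the combination over control for the tested genes of 6 further lists of the pathway, 1 row a gene coloured by its list, with lines of 1 SE and filled points where edgeR's adjusted p is under 0.05. Filled points lie on both sides of 0 for the chaperones, from Pdia3, Sec61a1 and Lnpep on the low side to Calr on the high side, while those of the regulators all lie above 0.

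B2m was set beside every other tested gene over the 12 libraries, by Pearson correlation of log2 CPM, as a description. The libraries fall in 4 groups and share depth and composition within them, so no p-value is given. H2-K1 came first of 5442 genes (0.971), followed by Tbc1d10b (0.964), Fcgr4 (0.963), Ackr3 (0.955), Slc16a3 (0.951), Tns3 (0.941), Fas (0.940) and Mmd (0.936). Fcgr4 is an activating Fc receptor of myeloid cells, and Fas is a death receptor. Of the remaining members Tap1 stood at place 19 (0.922) and Psmb9 at place 82 (0.866). H2-D1 (0.791), Tapbp (0.723) and Psmb8 (0.698) followed at places 255, 491 and 572. Psmb10 (0.0899) and Tap2 (-0.17) lay near the middle, and H2-T23 (-0.80) at place 5172, near the far end.

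Several sums of cell type markers were highest in the combination, and most of these sums held genes whose means differed in direction. Macrophage markers (5 of 8 tested) summed to 907 to 1112 CPM in Ct, 760 to 1130 in minP1, 871 to 1493 in PDL1 and 1844 to 4132 in minP1_PDL1. From control to the combination the mean of Apoe went from 177 to 1257 CPM, that of C1qa from 313 to 520.1 and that of C1qb from 75.1 to 57.5. Monocyte markers, all 5 tested, summed to 976 to 1037 CPM in Ct, 1088 to 1386 in minP1, 1330 to 1701 in PDL1 and 1540 to 1810 in minP1_PDL1, so the last 2 groups overlapped. Most of that sum was Fn1, at 761 ± 29.2 CPM in Ct, 975 ± 135 in minP1, 1209 ± 194 in PDL1 and 1148 ± 198 in minP1_PDL1, and Ccr2 had a lower mean in the combination than in control (151 to 131 CPM). Neutrophil markers (5 of 7 tested) summed to 322 to 375 CPM in control and 603 to 683 in the combination. Cxcr2, which had the highest mean of them in control, went from 276 to 123 CPM, while S100a9 went from 17.5 to 175, Mmp9 from 3.39 to 164 and Hdc from 10.7 to 103.

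T cell markers, of which only Thy1 was tested, summed to 32.9 to 67.2 CPM in Ct, 75.7 to 128 in minP1, 96.4 to 169 in PDL1 and 152 to 256 in minP1_PDL1, with Cd4 at 0 in control and Cd8a at 0 in anti-PD-L1. The means of Thy1 went from 32.6 to 106 CPM, of Cd2 from 2.45 to 42.8 and of Cd8a from 3.19 to 2.85 between control and the combination. NK cell markers (5 of 6 in the tables) summed to 22.9 to 89.6 CPM in control and 42.7 to 56.4 in the combination, with Ncr1 and Nkg7 at 0 there. Dendritic cell markers (7 of 8 in the tables, none tested) summed to 22.9 to 42.5 CPM in control and 34.1 to 39.5 in the combination. B cell markers (3 of 5 in the tables) summed to 6.72 to 14.3 CPM in control and 41.8 to 45.1 in the combination, a difference that rests on Pax5 (7.75 to 39.4 CPM), with Ms4a1 and Cd79b at 3 counts each over the 12 libraries. Endothelial markers summed to 7.31 to 25.8 and 23.9 to 76.8 CPM in the same 2 groups, in which the mean of Pecam1 went from 3.61 to 36.1 and that of Kdr from 4.15 to 0. Fibroblast markers summed to 933 to 1359 and 739 to 1221 CPM, with Col1a2 going from 702 to 400.4 and Col1a1 from 224 to 334, and erythroid markers to 1414 to 2801 and 863 to 2274. The part of these cell types in the changes of the 10 genes was not tested.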

How the data were processed

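Per the labels, each of 12 libraries holds 5′ tags from 1 tumour. The authors deposited whole-number counts per gene symbol, 19921 symbols a library, not normalized. The tools named in the submitters' processing notes are R 3.6.1, Bowtie2 2.2.5 and DESeq2, with build mm10; for the counting tool, its annotation, strand and reads with several matches nothing is given in the sources used here. Reads carry no recorded molecular identifiers.

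Computed here: filterByExpr of edgeR 4.0.16 (R 4.3.3) at its defaults kept 5443 genes, which hold 89.8% to 93.6% of counts, and left out 14478. TMM scaling and edgeR's quasi-likelihood test over all 12 libraries with 1 mean per group followed, with Benjamini-Hochberg adjustment over 5443 genes and a threshold of 0.05. The common dispersion was 0.0506, and the prior count behind log2 fold changes was 0.125. In data simulated for the combination against control (5314 genes), the same steps recovered 28 of 94 genes changed by 1 on the log2 scale and 80 of 96 changed by 2. Every simulated gene had the common dispersion, and genes were changed in the combination alone. These rates therefore need not hold for genes with a larger spread. Ratios used 0.5 added to each count and exact stratified permutation. Alternatives were DESeq2 1.42.0, limma voom (3.58.1), other scalings and filters, thinning to 133917 counts, covariates, the replicate block and leaving out libraries. An exact test of 3 against 3 libraries cannot give p under 0.1. Named were all 10 members, list genes that passed, 11 genes of the lists whether changed or not, and the 8 genes most like B2m. 1 further gene of the regulator list is not reported here. The members and lists were chosen with earlier results of these data known. Gene positions are from GENCODE M21 on mm10.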

Additional observations from a re-analysis of the deposited data

How the results depend on the processing

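The members' calls in the combination against control stayed within 5 to 8 in every setting and with each library left out. With detected genes as a covariate the calls became 0 in anti-PD-L1 against control, 0 in the combination against minP1, 1 for the antibody and 1 for the peptide. Beside these, 1, 275, 201 and 185 of all 5443 genes were called. With the Bc1 and Lrrc17 level the members' calls were 2 against anti-PD-L1, 2 against minP1 and 5 for the peptide. Of all genes 430, 586 and 322 were then called. In the combination against anti-PD-L1 DESeq2 gave 2 and limma voom 0, beside 331 and 269 of all genes. Without both minP1 replicate 2 and anti-PD-L1 replicate 1 the members' calls were 0 for anti-PD-L1 and 3 for the combination against it. Of all 5841 genes then tested 24 and 613 were called. Leaving out 1 library gave 0 to 1 in minP1, 0 to 7 in anti-PD-L1, 0 to 3 and 2 to 4 in the combination against anti-PD-L1 and minP1, 4 to 8 for the antibody and 0 to 7 for the peptide. Spans for all genes over all settings are given below. The cause of these moves in the members' calls was not tested.

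The heavy chain sum in anti-PD-L1 passed with DESeq2 size factors at 0.94 (adjusted p = 0.0483), in DESeq2 at 0.94 (adjusted p = 0.00562), in limma voom at 0.99 (adjusted p = 0.0267), unfiltered at 0.97 (adjusted p = 0.0192), with these groups alone at 0.99 (adjusted p = 0.0375), with the replicate block at 0.96 (adjusted p = 0.0208) and with the Bc1 and Lrrc17 level at 0.96 (adjusted p = 0.0361), all by edgeR unless named. It did not pass against minP1 unfiltered at 0.62 (adjusted p = 0.152), with these groups alone at 0.66 (adjusted p = 0.0508) and with detected genes at 0.60 (adjusted p = 0.217), nor for the antibody with detected genes at 0.74 (adjusted p = 0.0831). Leaving out 1 library gave 0.82 to 1.27, 0.66 to 0.81 against minP1 and 0.54 to 0.77 for the peptide.

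No reversal involved a called value. With detected genes as a covariate Tap2 was 0.53 in the combination, 0.34 for the antibody and 0.18 for the peptide, Psmb9 -0.0408 against anti-PD-L1 and Psmb10 0.15 for the antibody. With the Bc1 and Lrrc17 level Tap2 was 0.27, 0.15 and 0.12 in the same order, Psmb8 0.0643 and Psmb10 0.11. Without the 2 libraries named above the interaction was 0.14 for H2-K1 and 0.10 for B2m, and Psmb10 0.0709 and -0.00389 for antibody and peptide. At equal depth Tap2 was 0.0404 for the peptide. Tapbp against minP1 was -7.91e-04, -0.0566 and -0.0122 with total-count scaling, unfiltered and with these groups alone, and Psmb10 in the combination -0.0451 and -0.0376 in the first 2. Leaving out 1 library, the interaction spanned -0.44 to 0.0562 for H2-K1 and -0.45 to 0.15 for B2m, the peptide value -0.30 to 0.0789 for Tap2, -0.00469 to 0.64 for Psmb8 and -1.01e-04 to 0.23 for Psmb10, the value against anti-PD-L1 -0.24 to 0.0665 for Psmb8 and -0.0309 to 0.49 for Psmb9, Tapbp against minP1 -0.11 to 0.17, and Psmb10 -0.15 to 0.30 in the combination and -0.20 to 0.0633 for the antibody. The log2 ratios spanned, for the antibody, -0.0647 to 0.0834 (H2-K1 to B2m), -2.14 to -1.72 (H2-T23 to B2m), 0.68 to 1.42 (Psmb8 to Psmb5), 1.14 to 1.90 (Psmb9 to Psmb6) and 1.33 to 1.73 (Tap1 to Tap2), and for the peptide -1.78 to -1.36 (H2-T23 to B2m) and 0.58 to 0.98 (Tap1 to Tap2).

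Over all settings the number of all genes called spanned 1 to 173 in anti-PD-L1 (61 as reported), 494 to 2111 in the combination (1892), 94 to 613 against anti-PD-L1 (378), 275 to 1378 against minP1 (1088), 201 to 1767 for the antibody (1522), 76 to 516 for the peptide (398), 0 to 51 in minP1 (0) and 0 to 65 in the interaction (0). Total-count scaling shifted the median of all genes to -0.12 in anti-PD-L1 and to -0.14 in the combination, and split the anti-PD-L1 calls into 27 higher and 46 lower, against 30 and 31. Same-numbered libraries had correlations of -0.12 to 0.20 in 18 pairs, 9 of them over 0.1. Differently numbered libraries of different groups spanned more. Their lowest value was -0.29 (minP1 replicate 2 with combination replicate 3) and their highest 0.29 (minP1 replicate 2 with anti-PD-L1 replicate 1). Whether the numbers mark paired libraries was not tested. With the replicate block 3 members were called with anti-PD-L1, 7 in the combination and 6 for the antibody, where H2-D1 was added. Of all 5443 genes 173, 1972 and 1649 were then called, against 61, 1892 and 1522 as reported. Depth limits the calls: at 133917 to 473273 counts genes such as Nlrc5, Ifng and Socs1 could not be tested.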
